A study of Mus musculus with 16 samples.

Results

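The genes of the cytosolic ribosomal proteins were described in iWAT, the inguinal white adipose tissue, across 16 RNA-seq libraries. Members were taken by name: symbols that start with Rpl or Rps and a digit, together with Rplp0, Rplp1, Rplp2 and Rpsa, without names that hold -ps and without the kinases named Rps6k. This gave 93 of the 54752 genes in the count table. Of these, 43 encode proteins of the large subunit, 31 proteins of the small subunit and 3 proteins of the acidic stalk, 8 are paralogs, 7 are not annotated as protein coding, and Rps19bp1 encodes a protein that binds a ribosomal protein and is not part of the ribosome. They lie on 19 chromosomes, with 15 of them on chromosome 7.

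The cytosolic ribosome reads mRNA and links amino acids. Its small subunit holds the decoding site and its large subunit the site where peptide bonds form, and the acidic stalk recruits the translation factors. Ribosomal protein mRNAs are among the most abundant of growing cells, lymphocytes included, and many begin with a run of pyrimidines through which mTORC1 controls their translation. The inguinal fat pad surrounds a lymph node, so a dissected depot can hold lymph node tissue in varying amounts.

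The 4 genotypes were WT, Lepob/+ (1 copy of the ob allele, which does not give functional leptin), SOD1G93A (a mutant human SOD1 transgene, carried at a high copy number as a model of amyotrophic lateral sclerosis) and SOD1G93A-Lepob/+ (the transgene and the ob allele together). All were C57BL/6 mice of 90 days labelled as females, with 4 libraries a genotype, and neither the transgene nor the ob allele is restricted to a cell type. The question was how both mutations affect the adipose transcriptome. Libraries held 36.8 to 61.9 M counts (M for mega). The labels do not state that each library is 1 animal, so p-values measure the spread between these libraries.

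Some libraries stood apart. Adipocyte markers were high in all 16 libraries (a mean log2 CPM of 10.3 to 11.5 over 12 genes, CPM being counts scaled to the depth of the library). Library Lepob/+ 4 had 16.7% of its counts in 15 skeletal muscle genes, against 0.632% or less in the others. Library SOD1G93A-Lepob/+ 3 had 16.1 CPM of the Y-linked Eif2s3y and 0 counts of Xist, which goes against its label as female. The lymph node score, the mean log2 CPM of 9 markers of its stroma and of high endothelial venules such as Glycam1, Ccl19, Ccl21a and Cr2, fell into a high range of 3.91 to 4.91 in 6 libraries and a low range of -2.81 to -1.41 in the other 10. The 6 were WT 1 and 2, Lepob/+ 3 and SOD1G93A 1, 2 and 4, and none was SOD1G93A-Lepob/+.

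To show the start sites of members whose values are described here, 60 bases of the RefSeq promoter table (GRCm38.p6) are printed for 8 of them, 5′ to 3′ on the strand of the gene, from 40 bases before the annotated start to 20 bases from it on. Capitals mark 3 motifs on either strand: CTTTCC, the pyrimidine core of many ribosomal protein starts; CCGGAAG, a motif of ETS factors; and AAGATGG, a part of the YY1 motif. The motifs can overlap each other by a base or more.
Rps27, chr3:90213629-90213688, minus strand: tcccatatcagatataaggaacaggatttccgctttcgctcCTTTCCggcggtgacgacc
Rps27rt, chr9:114982720-114982779, minus strand: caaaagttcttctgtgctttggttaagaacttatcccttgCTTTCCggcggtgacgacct
Rps15a, chr7:118116128-118116187, minus strand: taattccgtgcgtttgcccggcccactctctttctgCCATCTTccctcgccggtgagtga
Rpl13a, chr7:45128726-45128785, minus strand: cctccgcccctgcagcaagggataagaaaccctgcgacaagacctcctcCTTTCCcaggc
Rpl35a, chr16:33056442-33056501, plus strand: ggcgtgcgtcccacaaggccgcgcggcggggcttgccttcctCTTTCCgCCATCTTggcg
Rpl22, chr4:152325686-152325745, plus strand: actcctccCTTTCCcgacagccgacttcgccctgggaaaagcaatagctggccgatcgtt
Rps27l, chr9:66946046-66946105, plus strand: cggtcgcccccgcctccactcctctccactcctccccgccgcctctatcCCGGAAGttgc
Rpl39l, chr16:10170188-10170247, plus strand: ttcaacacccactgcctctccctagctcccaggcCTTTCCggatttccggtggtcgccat
The first pair are a gene and its retrocopy, which hold the same run of bases from CTTTCC on. Rps15a and Rpl13a had high slopes on the lymph node score, Rpl35a ranked first in a genotype comparison, and the last 3 are Rpl22, which had a low slope, and 2 paralogs.

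Of the 93 members, 68 matched the table, with 80 windows of 300 bases (250 before the start and 50 after). CTTTCC stood in a window of 52.9% of these members and of 29.3% of all 27025 genes of the table. CCGGAAG stood in 38.2% of members and 9.93% of all genes, and AAGATGG in 14.7% and 7.28%. A run of at least 5 pyrimidines across the start, with at least 4 from the start on, was found in 26.5% of members and 7% of all genes. Among subunit and stalk members, the median of the slopes on the lymph node score described further on (log2 per unit of score) was 0.077 for the 16 with the pyrimidine run (13 called higher) and 0.073 for the 41 without it (33 called higher). It was 0.066 with CTTTCC (21 of 29 called) and 0.081 without (25 of 28), 0.065 with CCGGAAG (19 of 24) and 0.081 without (27 of 33), and 0.11 with AAGATGG (6 of 9) and 0.071 without (40 of 48), and the ranges overlapped for each. A match is a description of the letters and not a test of a factor.

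Counts in the members took 1.70% to 4.51% of a library. Replicates 1 to 4 of WT had 3.83%, 3.75%, 2.29% and 2.92%. Those of Lepob/+ had 2.29%, 3.05%, 3.97% and 1.70%. With the transgene alone the share was 3.78%, 4.51%, 2.28% and 3.61%, and with the ob allele added it was 2.28%, 2.87%, 2.26% and 2.50%. SOD1G93A had the highest mean (3.54% ± 0.928), followed by WT (3.20% ± 0.729), Lepob/+ (2.75% ± 0.980) and the double mutant (2.48% ± 0.283, SD, n = 4 each), and all 4 genotypes overlapped. The shares were spread widely within WT, Lepob/+ and SOD1G93A, and the 4 libraries of SOD1G93A-Lepob/+ were all at 2.87% or less. In bulk tissue, fewer cells of a type and less RNA per cell cannot be told apart.

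Set out by lymph node score, the shares did not overlap. The 6 libraries of high score had 3.61% to 4.51% of their counts in the members (3.91% ± 0.316, SD, n = 6) and the other 10 had 1.70% to 3.05% (2.44% ± 0.403, SD, n = 10). The lowest share was that of the muscle-rich Lepob/+ 4, whose members summed to 25710 CPM after scaling by TMM (trimmed mean of M values), inside the 22830 to 30140 CPM of the other libraries of low score. In the 6 libraries of high score they summed to 33630 to 41990 CPM.

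**Figure D1:**
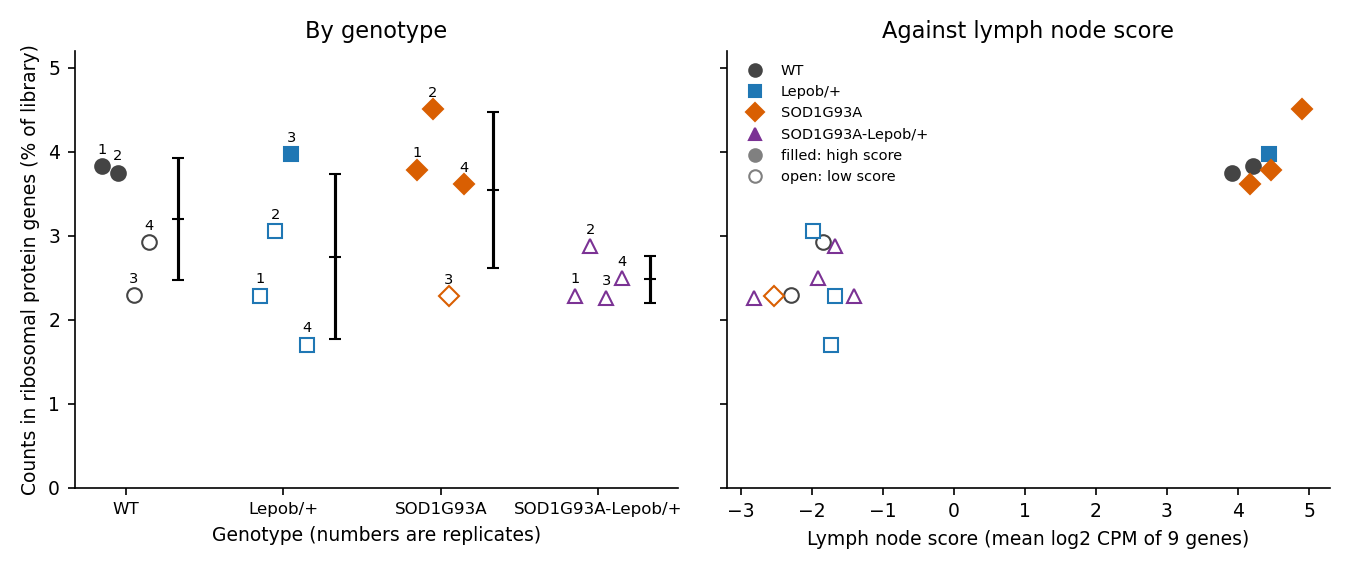
Share of each library's counts in the 93 ribosomal protein genes (%), by genotype with the mean and SD of 4 libraries (left) and against the lymph node score (right, mean log2 CPM of 9 genes); filled symbols mark the 6 libraries of high score. The filled symbols lie at 3.61% to 4.51% and the open ones at 1.70% to 3.05% over all libraries, and SOD1G93A-Lepob/+ has open symbols only.

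The most abundant members by mean CPM over all libraries were Rplp0, Rpl4, Rps3a1, Rpsa, Rplp1 and Rps4x, of which Rplp0 led with 1081 CPM. Per length of annotated exons, Rplp1 led with 1498 CPM per kb, followed by Rps3a1 with 888 and Rps15 with 807. Levels spanned a wide range, with 77 members over 100 CPM and 4 under 10. Only uniquely mapped reads were counted, so members with near-identical copies can be undercounted in these rankings. The exon length joins all annotated transcripts of a gene and can exceed that of its mRNA. Rpl10l, a paralog of the X-linked Rpl10, had 0 counts in every library, which allows up to 3 counts a library and covers counting error only. It was the 1 member that the filter on low counts removed, so 92 of 93 were tested among 19736 genes.

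To relate the members to lymph node content, each gene was fitted with a slope on the score beside the genotype means (edgeR's quasi-likelihood test, p adjusted by Benjamini-Hochberg over all genes). Of the 92 members tested, 69 were called higher with the score and 2 lower, beside 18.1% of all genes called higher and 14.4% called lower. The median slope was 0.071 log2 per unit of score over the members and -0.0067 over all genes, and 87 members had a slope above 0. By class, 33 of 43 large subunit genes, 28 of 31 small subunit genes and 3 of 3 stalk genes were called higher. Of 7 paralogs tested, 1 was called higher and 1 lower. Of the 7 genes not annotated as protein coding, 4 were called higher and 1 lower.

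Most of the spread of the score lay in the gap between both ranges. Within the 10 libraries of low score the median slope was 0.085 and 0 members were called, and within the 6 of high score it was 0.24 with 0 called (edgeR), with fewer libraries and a narrower score in both. In each of these fits 0% of all genes were called, so the counts say nothing particular about the members. Both of these fits also left out the genotype means, so their slopes can hold differences between genotypes and are not the same quantity as the slope above. With the adipocyte score as a second covariate, an alternative chosen after seeing the data, 30 members were called higher (12.6% of all genes), and the median slope was 0.058. The adipocyte score itself had a median of 10.54 (10.3 to 10.9) in the libraries of high lymph node score and of 11.18 in the others, which were at 10.8 to 11.5 apart from 10.3 in the muscle-rich Lepob/+ 4, so it moved with the lymph node score, and its part in the result was not tested. No single library brought the count below 51 (without SOD1G93A replicate 3) or above 75 (without Lepob/+ replicate 2).

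**Figure D2:**
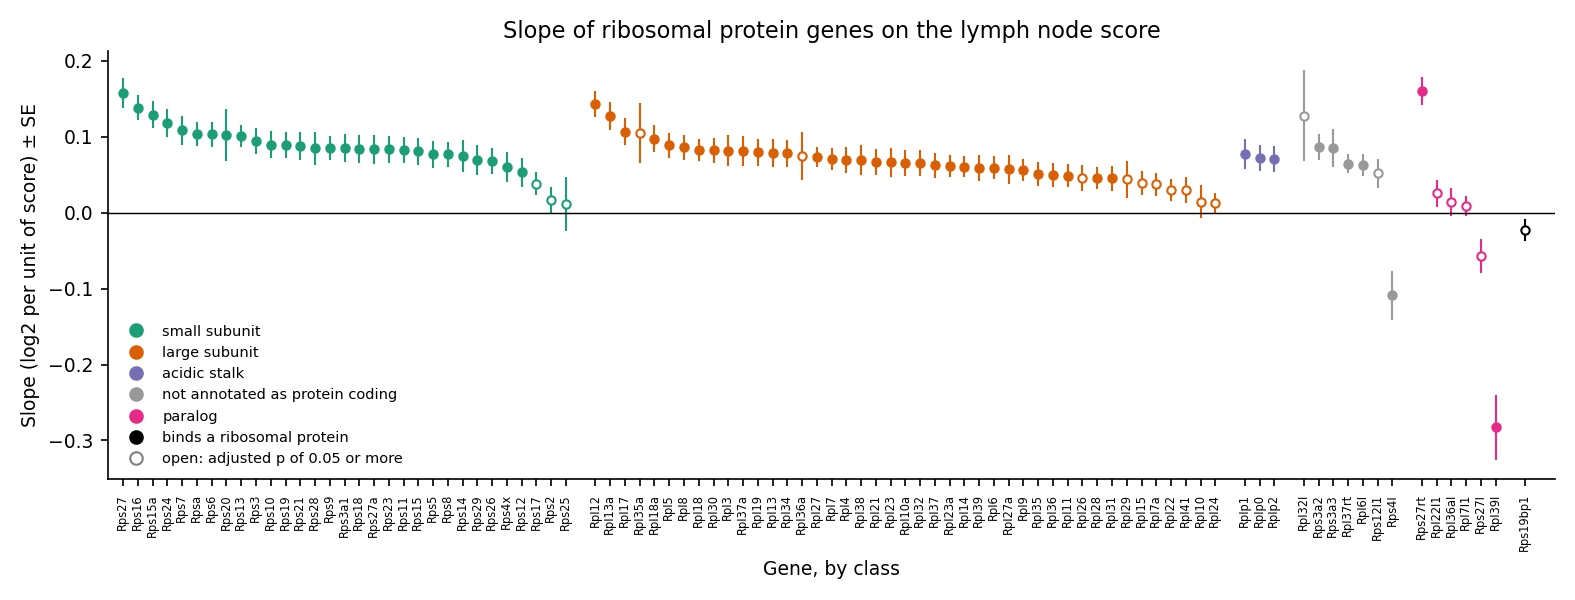
Slope of 91 tested members on the lymph node score (log2 per unit, points, with the SE as bars), by class and in falling order; filled points have an adjusted p under 0.05 in edgeR. Rpl3l, with a slope of -1.07 and an SE of 0.706, is left out for scale. Small subunit, large subunit and stalk genes all lie above 0, and Rpl39l is the lowest point at -0.28.

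Among small subunit genes the largest slope was that of Rps27, a zinc-finger protein of the small subunit. Its level was 513, 428, 231 and 294 CPM for WT 1 to 4, 220, 296, 541 and 235 for Lepob/+, 504, 660, 253 and 465 for SOD1G93A and 228, 293, 214 and 244 for the double mutant SOD1G93A-Lepob/+. The 6 libraries of high score were at 428 to 660 CPM and the other 10 at 214 to 296 CPM, with no overlap and a ratio of medians of 2.12. The slope was 0.16 (SE 0.019, adjusted p 4.88e-05 in edgeR).

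Rps27rt, a retrocopy of Rps27 on chromosome 9, gave nearly the same picture at a lower level, with 28.5 to 42.1 CPM in the libraries of high score and 13.5 to 20.7 CPM in the others. Its slope was 0.16 (SE 0.019, adjusted p 3.41e-05 in edgeR). The annotated transcripts of both genes share an unbroken stretch of 341 bases, longer than a read of 100 bases. Only uniquely mapped reads were counted, so reads that match both genes equally well are lost. The values of Rps27 and Rps27rt are therefore both uncertain. Rpl37 and Rpl37rt share 257 bases, with the same limit.

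Rps16 and Rps15a, both of the small subunit, came next in their class. Rps16 was at 473 to 657 CPM in the libraries of high score and 261 to 339 CPM in the others, with a slope of 0.14 (SE 0.017, adjusted p 4.52e-05 in edgeR). Rps15a was at 363 to 468 CPM and 185 to 276 CPM, with a slope of 0.13 (SE 0.018, adjusted p 1.51e-04 in edgeR). Neither overlapped between both sets of libraries.

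In the large subunit the leading gene was Rpl12, which encodes a protein of the stalk base. Its level was 592, 529, 279 and 365 CPM for WT 1 to 4, 300.1, 391, 615 and 327 for Lepob/+, 632, 751, 305 and 589 for SOD1G93A and 308, 373, 292 and 349 for the double mutant SOD1G93A-Lepob/+. The 6 libraries of high score again lay above the other 10, with a ratio of medians of 1.90 and a slope of 0.14 (SE 0.017, adjusted p 3.86e-05 in edgeR). Rpl13a, known for a role outside the ribosome in silencing inflammatory mRNAs, had 634 to 917 CPM against 356 to 495 CPM and a slope of 0.13 (SE 0.018, adjusted p 1.84e-04 in edgeR).

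On a short list of members known for inherited disease or tissue roles, 7 of 8 were called higher, beside 18.1% of all genes. All are subunit genes, and of their classes 33 of 43 large and 28 of 31 small subunit genes were called higher, so the list does not stand out. Other members have such roles too and were not on the list. Rps19 and Rpl11, both mutated in Diamond-Blackfan anaemia, had slopes of 0.088 and 0.049. Rps6, the substrate of the S6 kinases, had 0.10, and Rpsa, also known as the laminin receptor and mutated in isolated asplenia, 0.10. Rpl5, which with Rpl11 binds Mdm2, had 0.088, and Rpl38, known for its role in Hox mRNA translation, 0.069. The call of Rpl11 was lost without WT replicate 3, Lepob/+ replicate 3 or SOD1G93A replicate 3 (slopes of 0.046, 0.042 and 0.047), and that of Rpl38 without Lepob/+ replicate 3 or SOD1G93A replicate 3 (0.069 and 0.067). Both were also lost beside the adipocyte score (0.038 and 0.062). The member of the list that was not called was Rpl22, which is needed for αβ T cell development, with a slope of 0.030 (SE 0.015, adjusted p 0.126 in edgeR) and levels of 157 to 187 CPM against 127 to 174 CPM. Rpl22 was called higher with library totals in place of TMM (slope 0.061) and without genotype means in the fit (0.030).

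The stalk genes moved by nearly equal amounts. Rplp0, Rplp1 and Rplp2 had slopes of 0.071, 0.077 and 0.071 (edgeR adjusted p 0.00647, 0.00814 and 0.0071), and the call of Rplp1 was lost without SOD1G93A replicate 3 (0.067). Beside the adipocyte score the calls of Rplp0 and Rplp1 were lost (0.038 and 0.051). Rplp0 was at 1202 to 1508 CPM in the libraries of high score and 831 to 1135 CPM in the others, without overlap.

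Over the 92 members, 55 lay higher in all 6 libraries of high score than in any of the other 10, beside 11.2% of all genes, and 1 lay lower, beside 4.23% of all genes. The ranges of the other 36 overlapped. The ratio of medians had a median of 1.41 over the members.

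The small subunit genes differed more between both sets of libraries than the large subunit genes. The ratio of summed large to small subunit counts, which does not depend on the scaling of the library, was 1.02 to 1.05 in the 6 libraries of high score and 1.08 to 1.13 in the other 10. The median slope was 0.085 for the small and 0.065 for the large subunit genes. Within the libraries of low score the ratio was lowest in Lepob/+ 2 (1.079) and SOD1G93A-Lepob/+ 2 (1.082).

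Among libraries of low lymph node score, the 3 with the highest share of members were Lepob/+ 2 (3.05%), WT 4 (2.92%) and SOD1G93A-Lepob/+ 2 (2.87%). These also had the 3 highest macrophage scores of all 16 libraries, at 8.37, 7.99 and 7.79 (mean log2 CPM of 12 genes), against 5.98 to 7.58 in the other 13. The part of macrophages in the share was not tested.

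**Figure D3:**
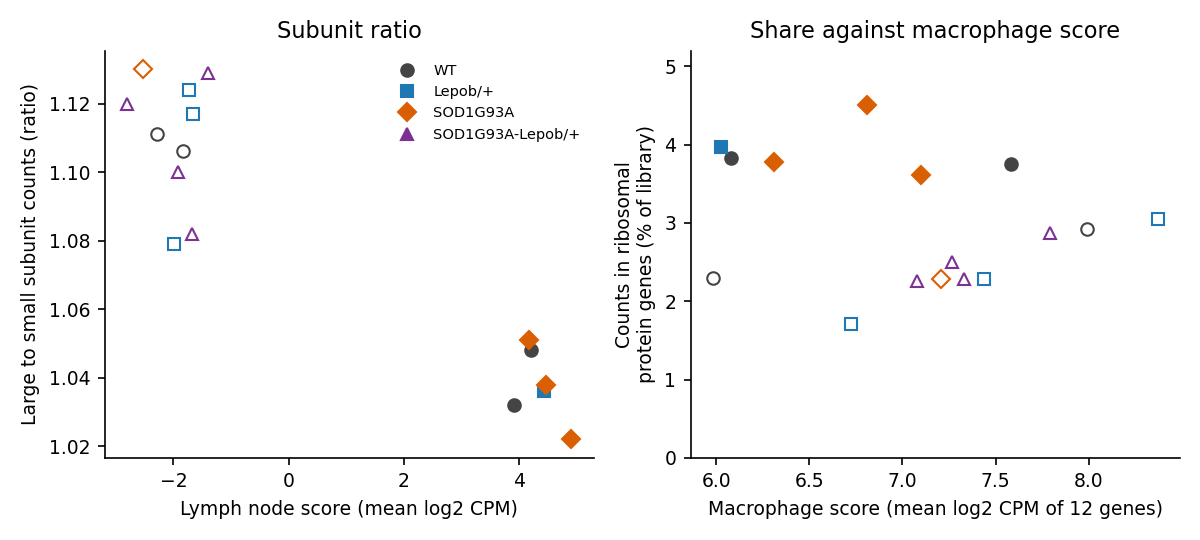
Ratio of summed large to small subunit counts against the lymph node score (left) and the members' share of counts (%) against the macrophage score (right, mean log2 CPM of 12 genes), 1 point a library; filled symbols mark high lymph node score. The ratio is 1.02 to 1.05 in the filled and 1.08 to 1.13 in the open symbols, and the 3 open symbols with the highest macrophage scores have the 3 highest shares among the open ones.

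Of the 7 paralogs tested, Rps27rt was called higher and Rpl39l lower, shares near the 18.1% and 14.4% of all genes, and the other 5 were not called. Rpl39l, a paralog of Rpl39 best known from testis, was at 2.04, 2.28, 6.59 and 6.16 CPM for WT 1 to 4, 4.99, 5.89, 0.607 and 5.03 for Lepob/+, 1.77, 2.37, 4.97 and 2.22 for SOD1G93A and 7.62, 5.75, 10.2 and 6.38 for the double mutant SOD1G93A-Lepob/+. All 6 libraries of high score lay below the other 10, a reverse of its partner. Its slope was -0.28 (SE 0.043, adjusted p 2.87e-04 in edgeR), while that of Rpl39 was 0.059 (SE 0.017, adjusted p 0.0175 in edgeR). The call of Rpl39 was lost without Lepob/+ replicate 3 (slope 0.062) or SOD1G93A replicate 3 (0.059), and beside the adipocyte score (0.053). The annotated transcripts of this pair share at most 38 bases in a row.

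Rps4l, an Rps4x-like gene annotated as a processed pseudogene, was the other member called lower, at 14.9 to 33.6 CPM in the libraries of high score and 25.4 to 55.4 CPM in the others. Its slope was -0.11 (SE 0.032, adjusted p 0.0196 in edgeR), and the call was lost without Lepob/+ replicate 3 (slope -0.10), with library totals (-0.076), with a score from B cell genes (-0.10) and beside the adipocyte score (-0.10). Rps27l, a paralog of Rps27 and a target of p53, had a slope of -0.058 (SE 0.022, adjusted p 0.0626 in edgeR), with 33.3 to 47.7 CPM against 40.3 to 65.5 CPM. It was called lower without Lepob/+ replicate 1, Lepob/+ replicate 4 or SOD1G93A replicate 3 (slopes of -0.062, -0.049 and -0.090), with a score from B cell genes (-0.064) and beside the adipocyte score (-0.099). The same held without genotype means in the fit (-0.052) and beside a score from skeletal muscle genes (-0.047). Rpl7l1 and Rpl36al had slopes of 0.0086 and 0.014, both below their SE of 0.013 and 0.019. With library totals Rpl36al was called higher (0.046).

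Rpl3l, a paralog that takes the place of Rpl3 in striated muscle, was found with the muscle transcripts. Lepob/+ 4 and WT 3, the libraries with the 2 highest muscle scores, had 500.2 CPM and 11.96 CPM of it, and the other 14 had 1.11 CPM or less. Rpl3 itself was lowest in Lepob/+ 4, at 338 CPM, and at 426.5 CPM or more elsewhere.

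Some subunit genes showed little relation to the score. Rpl24, Rpl10, Rps2 and Rps25 had slopes of 0.012, 0.014, 0.017 and 0.011, each within its SE of 0.013, 0.022, 0.017 and 0.036. Rps25 varied within every genotype instead, from 127 CPM to 324 CPM. Rps19bp1, whose protein binds Rps19, had a slope of -0.023 (SE 0.015, adjusted p 0.252 in edgeR).

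**Figure D4:**
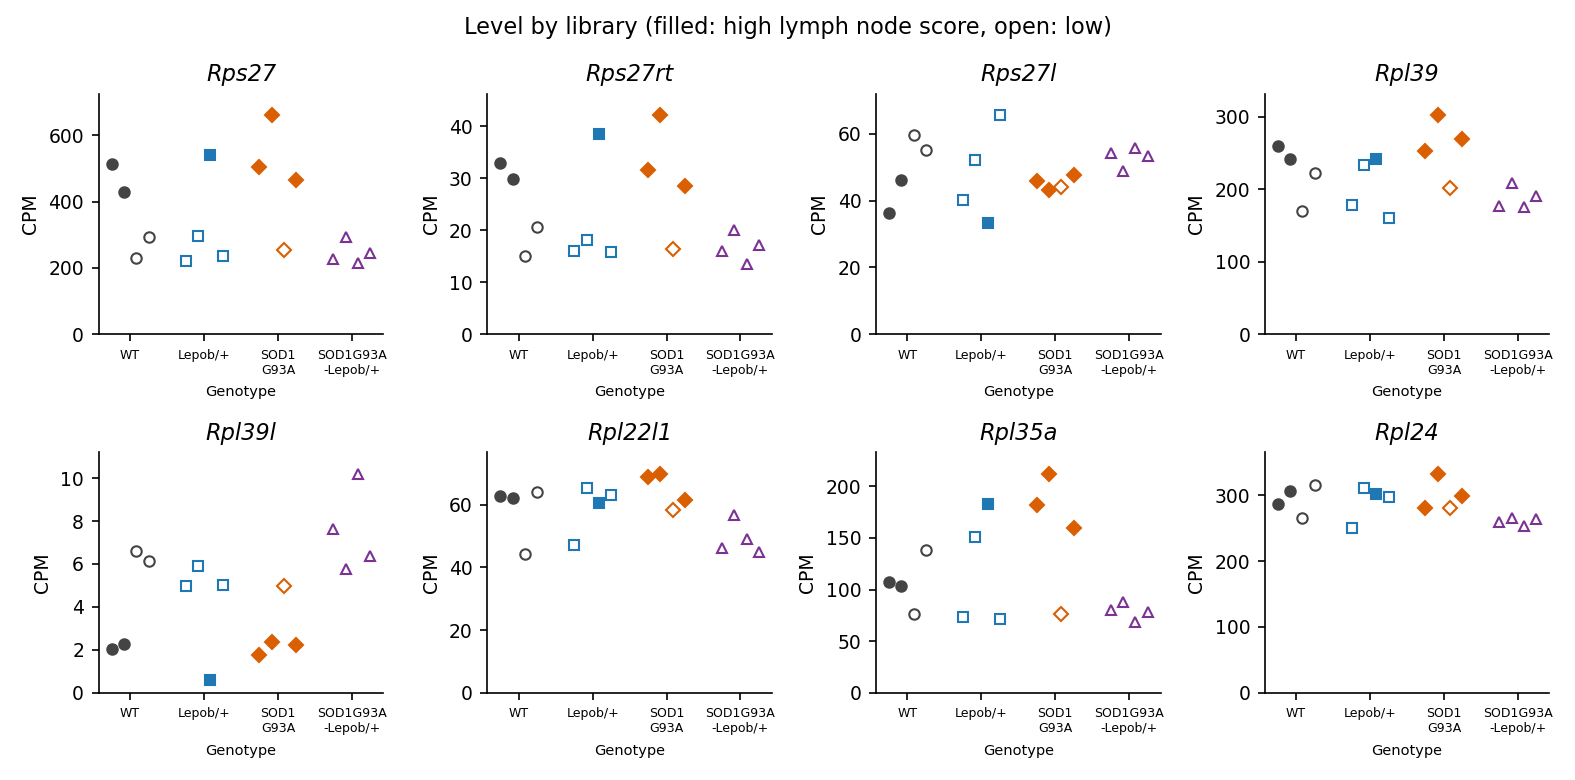
CPM of 8 members in each library, by genotype, with axes that start at 0; filled symbols mark high lymph node score and open ones low. Rps27 and Rps27rt are at 428 to 660 CPM and 28.5 to 42.1 CPM in the filled symbols, Rpl39l is below all open symbols there, and Rpl24 shows no such separation.

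Genes of the pathway outside the naming rule were read from fixed lists. Fau and Rack1, which encode ribosomal proteins under other names, were both called higher, with slopes of 0.11 and 0.092 (edgeR). Of 32 genes of ribosome biogenesis, 19 were called higher and 0 lower (18.1% and 14.4% of all genes), led by Mdn1, an ATPase that remodels the pre-large subunit, at 0.23, Heatr1 at 0.17 and the rRNA methyltransferase Fbl at 0.12. Of 17 translation factor and other mRNAs with pyrimidine starts, 3 were called higher, a share near the 18.1% of all genes (Hnrnpa1 0.098, Npm1 0.10 and Eef1b2 0.071). Eef1a1, the elongation factor, had 0.041 (adjusted p 0.173 in edgeR).

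Of 16 genes of mTORC1 and Myc control, 3 were called higher and 2 lower, near the 18.1% and 14.4% of all genes. Rps6ka1 had a slope of 0.15, Myc 0.14 and Max 0.057, while Rheb had -0.073 and Eif4ebp1 -0.091. Of 78 mitochondrial ribosomal protein genes, grouped by name after the values were seen, 2 were called higher and 14 lower, beside 18.1% and 14.4% of all genes. Of 123 genes with -ps names that were tested, 69 were called higher and 0 lower, beside the same shares of all genes. Counts in all genes with -ps names stood at 8.61 to 9.36 for every 100 counts of the members in all libraries. Since reads that match near-identical copies equally well are lost, these counts are uncertain.

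The markers of other cell types moved with the score as follows. All 18 T cell genes and all 15 B cell genes were called higher, beside 18.1% of all genes. So were 8 of 9 genes of the score itself, which is no separate result because the score is their mean. Of the other markers, 7 of 12 adipocyte genes and 1 of 12 macrophage genes (Mertk) were called lower, beside 14.4% of all genes, and 0 of 15 muscle genes were called.

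The genotypes were compared next, to ask whether either mutation changed the members. In edgeR, 0 members were called in any of the 5 comparisons, as were 0% of all genes. At an unadjusted p under 0.05, 0 members passed for Lepob/+ against WT (4.37% of all genes) and for SOD1G93A against WT (2.56%), 1 for SOD1G93A-Lepob/+ against Lepob/+ (8.24%) and 1 for the interaction (7.98%). The 1 for SOD1G93A-Lepob/+ against Lepob/+ was on the list of paralogs and was lower. In that comparison 14 of 15 skeletal muscle genes were also lower at an unadjusted p under 0.05, and the part of muscle was not tested. The median log2 fold change of the members was -0.082 for Lepob/+ against WT, 0.15 for SOD1G93A against WT, -0.40 for SOD1G93A-Lepob/+ against SOD1G93A, -0.18 for SOD1G93A-Lepob/+ against Lepob/+ and -0.32 for the interaction. Over all genes the medians were 0.033, 0.021, 0.00048, -0.062 and -0.095. Leaving out 1 library moved the members' median for Lepob/+ against WT to between -0.22 (without Lepob/+ replicate 3) and 0.010 (without Lepob/+ replicate 1), and that for SOD1G93A against WT to between 0.030 (without SOD1G93A replicate 2) and 0.25 (without SOD1G93A replicate 3). Within the 10 libraries of low lymph node score the latter was -0.12, which sets SOD1G93A replicate 3 alone against WT replicates 3 and 4. The median for SOD1G93A-Lepob/+ against Lepob/+ moved to between -0.27 (without Lepob/+ replicate 1) and -0.028 (without Lepob/+ replicate 3), and that for the interaction to between -0.41 and -0.19 (without the same libraries in turn). These comparisons share groups and are not independent of each other.

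The comparison of SOD1G93A-Lepob/+ with SOD1G93A, which asks what the ob allele does in mice with the transgene, had the smallest adjusted p over the members. At an unadjusted p under 0.05, 41 members were lower and 1 higher, beside 12.3% of all genes lower and 4.19% higher. The smallest adjusted p of a member was 0.261 in edgeR. At an unadjusted p under 0.05, 18 of 18 T cell genes and 15 of 15 B cell genes were lower (medians of -5.96 and -6.70), and 5 of 5 red blood cell genes were higher (median 1.08). The part of these cells in the result was not tested. The count of members lower rested on single libraries: it was 14, 2, 74 and 20 without SOD1G93A replicates 1, 2, 3 and 4, 11 without SOD1G93A-Lepob/+ replicate 1 and 9 without replicate 3, and 14 with library totals in place of TMM. The share of all genes lower in these refits was not counted, so the counts do not show a shift of the members alone.

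The call also depended on the tool. DESeq2 on the 8 libraries alone called 9 members lower and 1 higher (4.73% and 1.3% of all genes), and voom with quality weights called 75 lower and 1 higher (19.1% and 12.6%). DESeq2 on all 16 libraries called 0 members (1.83% of all genes). Of the 10 called by DESeq2 on 8 libraries, Rpl39l had the smallest adjusted p (log2 fold change 1.40, SE 0.368, adjusted p 0.00492), then Rps27 (-0.95, SE 0.281, adjusted p 0.016).

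By the edgeR ranking, Rpl35a came first. It encodes a large subunit protein that is also mutated in Diamond-Blackfan anaemia. Its level was 107, 103, 76.6 and 138 CPM for WT 1 to 4, 73.0, 151, 183 and 71.8 for Lepob/+, 182, 212, 75.9 and 159 for SOD1G93A and 80.4, 88.2, 68.6 and 78.1 for the double mutant SOD1G93A-Lepob/+. SOD1G93A 3 lay within the range of SOD1G93A-Lepob/+, and the log2 fold change was -0.997 (SE 0.336, adjusted p 0.261 in edgeR). Rpl30 followed with -0.59 (SE 0.203, adjusted p 0.261 in edgeR). DESeq2 on the 8 libraries alone called Rpl35a (adjusted p 0.0161) and Rpl30 (adjusted p 0.0416), as did voom with quality weights.

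The third was Rpl22l1, the paralog of Rpl22 that can replace it in the ribosome. It was at 68.9, 69.9, 58.4 and 61.5 CPM in SOD1G93A and at 46.2, 56.8, 49.1 and 44.9 CPM in SOD1G93A-Lepob/+, so the ranges did not overlap. In WT it was at 62.9, 62.2, 44.3 and 64.1 CPM and in Lepob/+ at 47.1, 65.4, 60.5 and 63.0 CPM. Its log2 fold change was -0.39 (SE 0.139, adjusted p 0.261 in edgeR). DESeq2 on the 8 libraries alone called Rpl22l1 (adjusted p 0.036), and so did voom with quality weights. Its slope on the lymph node score was 0.025 (SE 0.018, adjusted p 0.304 in edgeR), and SOD1G93A 3, of low score, was above all 4 SOD1G93A-Lepob/+ libraries. Without genotype means in the fit, the slope of Rpl22l1 was called higher (0.041).

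Across the 4 and 4 libraries of this comparison, 2 members lay lower without overlap (Rpl22l1 and Rpl24) and 2 higher (Rpl39l and Rps27l), beside 3.6% of all genes lower and 3.58% higher, shares near to those of the members. In the other 3 pairs compared, 0 members were without overlap, beside 0.532% of all genes higher and 0.375% lower for Lepob/+ against WT, 1.37% and 0.684% for SOD1G93A against WT, and 1.2% and 1.15% for SOD1G93A-Lepob/+ against Lepob/+.

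At equal lymph node score the medians of the members moved to 0.010, 0.018, -0.050, -0.039 and -0.063 in the same order of comparisons. Again 0 members and 0% of all genes were called in edgeR. For SOD1G93A-Lepob/+ against SOD1G93A, 0 members passed an unadjusted p under 0.05. The log2 fold changes there were -0.43 (SE 0.341) for Rpl35a, -0.18 (SE 0.144) for Rpl30, -0.27 (SE 0.154) for Rpl22l1 and 0.13 (SE 0.367) for Rpl39l. When only the 10 libraries of low score were kept, which was also decided after the data were seen, the median was 0.045. SOD1G93A then kept 1 library, so its spread could not be measured. Genotype and lymph node score are tied in these libraries, since 3 of 4 SOD1G93A and 0 of 4 SOD1G93A-Lepob/+ libraries had a high score, so their parts cannot be told apart fully.

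**Figure D5:**
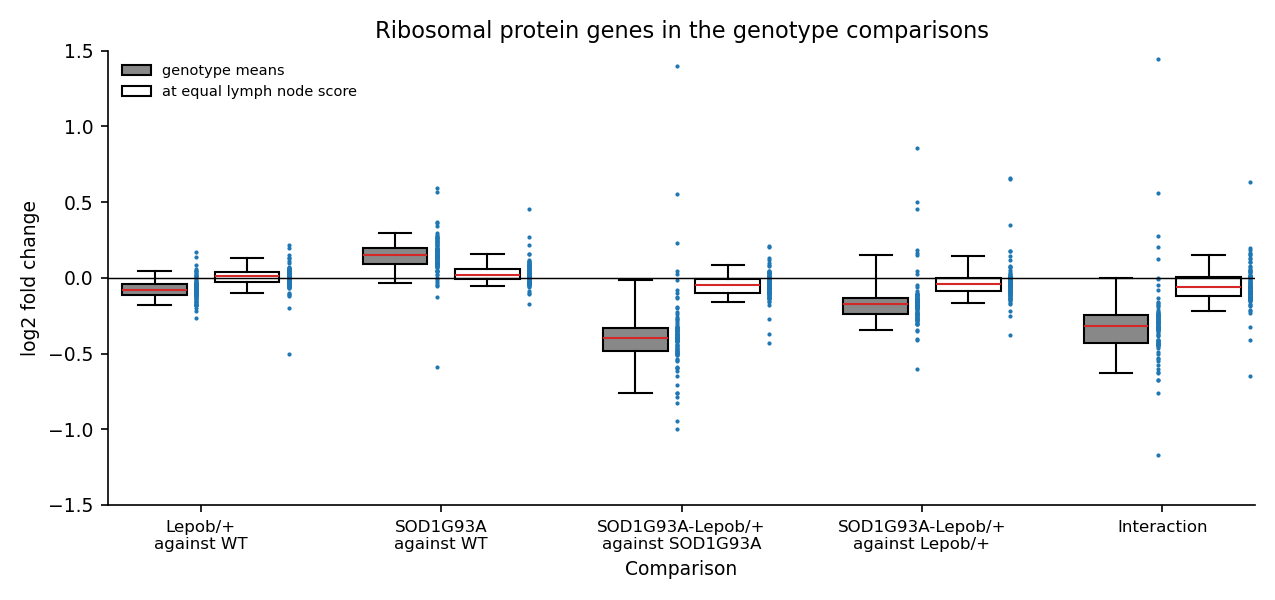
Log2 fold changes of the 92 tested members (blue points, with boxes from the lower to the upper quartile, the median in red and whiskers from the 5th to the 95th percentile) in 5 comparisons, from genotype means (grey) and at equal lymph node score (white); 1 member lies outside the axis in 9 of the 10 sets. The grey median of SOD1G93A-Lepob/+ against SOD1G93A is -0.40 and the white one -0.050.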

How the data were processed

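RNA of iWAT was measured in 16 libraries, with 4 libraries in each of the 4 genotypes. The deposited values are raw counts per Ensembl gene, which the authors made by trimming reads of 100 bp with fastp (Phred score of at least 30, length of at least 30), aligning to mm10 with HISAT2 2.1.0 and counting uniquely mapped reads with featureCounts 2.0.2. Reads that match near-identical copies equally well are lost in this way. The strand setting and annotation release are not given in the sources used here. Symbols, positions and exon lengths came from GENCODE M21 (GRCm38).

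Counts were fitted in R 4.3.3 with edgeR 4.0.16 (filterByExpr, min.count 10, TMM, robust quasi-likelihood F test, Benjamini-Hochberg over 19736 genes, threshold 0.05). Log2 values used a prior count of 1. The lymph node score was added as a covariate for slopes and for comparisons at equal score, and the SE is the log2 value over the root of F. The split into 6 and 10 libraries is at the widest gap of the score. Alternatives used limma 3.58.1 and DESeq2 1.42.0. The fits were tested on simulated data. Genes named are the 6 highest by mean CPM, the 5 highest and 5 lowest slopes, the 3 smallest p of each genotype comparison, and fixed lists of paralogs, partners, stalk and disease genes, with up to 3 genes of each other list; Rps25, Rpl24, Rps2, Rpl37rt and other members named beyond this were chosen after their values were seen. A further gene of these lists is not reported here. Members, lists and tests were chosen with earlier results of these data known. Replicate numbers were shared between genotypes, but of 24 pairs with the same number 5 had deviations with r over 0.1 and 8 had r below -0.1, so the numbers were not taken to pair mice. At 36.8 to 61.9 M counts per library the counting error of most members is small beside the spread between libraries, and floors cover counting error only.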

Additional observations from a re-analysis of the deposited data

Results flagged for a closer look

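In 156 sets of 4 libraries (the share, the subunit ratio and 38 named members in each genotype), 9 had 1 library far from the other 3 by Dixon's criterion, which chance meets in about 1 in 20 sets. Lepob/+ 3, the only Lepob/+ library of high lymph node score, had 38.6 CPM of Rps27rt against 15.8 to 18.1 CPM and 0.607 CPM of Rpl39l against 4.99 to 5.89 CPM. Rpl3l was at 500.2 CPM in Lepob/+ 4, at 11.96 CPM in WT 3 and at 1.11 CPM in SOD1G93A 4, with the other 3 libraries of each genotype at 0. WT 3 was low in Rpl22l1 (44.3 CPM against 62.2 to 64.1 CPM) and in Rpl11 (282 CPM against 338 to 348 CPM). SOD1G93A 3, the only SOD1G93A library of low score, had 244 CPM of Rpl23 against 322 to 334 CPM. SOD1G93A-Lepob/+ 2 had 125 CPM of Rpl38 against 96.2 to 99.2 CPM. The cause of these values was not tested.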

How the results depend on the processing

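The count of members called higher with the lymph node score was 66 to 78 under every other scaling, filter, tool and covariate run but 3. It was 0 within the 10 libraries of low score and 0 within the 6 of high score. These also gave 0 lower, and 0% of all genes were called in either. Beside the adipocyte score it was 30 (12.6% of all genes). The slopes within either range of the score were fitted without the genotype means. The median slope was 0.10 with library totals and 0.24 within the 6 libraries of high score, where few libraries were left. The count called lower was 1 with library totals. In SOD1G93A-Lepob/+ against SOD1G93A, 10 members were called by DESeq2 on the compared genotypes (6.03% of all genes) and 76 by voom with quality weights (31.7%). The count lower at an unadjusted p was 14 with library totals, 78 with voom and 10 without Lepob/+ 4 and SOD1G93A-Lepob/+ 3 together. The share of all genes at that threshold was not counted in these fits. The 10 libraries of low score gave medians of -0.12 for SOD1G93A against WT, 0.045 for SOD1G93A-Lepob/+ against SOD1G93A and 0.074 for the interaction. Among them, SOD1G93A replicate 3 was the only SOD1G93A library. Where a value moved, the cause was not tested.

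Leaving out 1 library gave 51 to 75 members called higher and 1 to 3 lower with the score, 2 to 74 lower at an unadjusted p in SOD1G93A-Lepob/+ against SOD1G93A, and 0 called in every genotype comparison in edgeR. Over these, the medians were -0.22 to 0.010 for Lepob/+ against WT and -0.51 to -0.28 for SOD1G93A-Lepob/+ against SOD1G93A. Shares of all genes were not counted for the refits without 1 library.

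Slopes that changed sign were 6.85 for Rpl3l, 0.028 for Rps27l, 0.039 for Rps19bp1, -0.0022 for Rpl11 and -0.021 for Rplp2 in the 10 libraries of low score. In the 6 of high score they were 0.37 for Rps4l, -0.026 for Rpl22, -0.044 for Rpl7l1 and -0.12 for Rpl36a. Beside the adipocyte score they were -0.0090 for Rpl7l1, -0.0086 for Rpl22l1, -0.031 for Rpl36al and -0.015 for Rpl10. The slope of Rps19bp1 was 0.0089 with library totals and that of Rpl10 -0.0022 without WT replicate 3. The log2 fold change of Rpl35a was 0.059 in SOD1G93A-Lepob/+ against SOD1G93A within the libraries of low score, where SOD1G93A replicate 3 was the only SOD1G93A library.

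With the replicate number as a block, 67 members were called higher and 2 lower with the score (16.7% and 13.6% of all genes), with a median slope of 0.071. In SOD1G93A-Lepob/+ against SOD1G93A, 34 were lower at an unadjusted p, where the share of all genes was not counted. The block changed no call count of a genotype comparison.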

Other observations

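Rpl35a was high in libraries of both kinds. Among libraries of low lymph node score, WT 4 had 138 CPM and Lepob/+ 2 had 151 CPM, above WT 1 and 2 of high score (107 and 103 CPM), while the other 8 libraries of low score were at 68.6 to 88.2 CPM. Its slope was 0.10 (SE 0.039, adjusted p 0.0576 in edgeR).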
